A study of Homo sapiens with 9 samples.

Results

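The genes described here are the protein-coding genes of human chromosome 13 with a mean of at least 5 CPM, the unit in which counts are scaled by library size, over all 9 libraries, 154 of the 316 such genes that have a row in the deposited count table. Another 10 genes reach that level but are left out by name, because their symbols start with RPL, MRP, SLC25A or COL or because they are LAMP1, RFC3 or CKAP2, and 152 lie below 5 CPM. The members were chosen by their chromosome and their mean CPM over all libraries, and the chromosome was chosen because its genes moved together in these same libraries. The joint shift is therefore a description, with no test; each gene's own test comes from a fit of all 15019 tested genes, in which all 154 members took part.

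The libraries were made from total RNA of cells labelled Huh7, a line of human hepatocellular carcinoma cells, grown in DMEM. OPA1 was knocked down in 3 libraries of a set called N_30 and 3 of a set called N_28, and 3 further libraries are controls. The labels give lentivirus as the means of the knock-down and print that same treatment for the control libraries, so what vector the control cells received is not known here. What N_28 and N_30 stand for, and whether the 3 libraries of a set were separate cultures, is not stated, so a p-value here reflects no more than the variation among these 9 libraries, part or all of which may be technical. The study asked what OPA1, a GTPase that fuses inner mitochondrial membranes and keeps cristae in shape, does in these cells.

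Genes of 1 chromosome share no pathway. The RNA output of a chromosome depends on how many copies of it a cell carries, on the state of its chromatin and on the regulators of each gene, and carcinoma lines often carry abnormal chromosome sets. The values here are all RNA, and no DNA measurement was used. Chromosome 13 is an acrocentric chromosome whose long arm carries its protein-coding genes, with stretches rich in genes near both ends and gene-poor stretches between them.

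Total counts per library were 16476389 to 22400589 in N_30, 18316731 to 22863328 in N_28 and 19510555 to 22164035 in control libraries. OPA1 averaged 64.4 ± 1.30 CPM in N_30, 55.5 ± 2.25 CPM in N_28 and 88.7 ± 5.28 CPM in control libraries (SD, n = 3 each), and fell in both sets (log2 fold change -0.68, adjusted p = 1.385e-05 in N_28, and -0.46, adjusted p = 0.002206 in N_30, edgeR). Of 8 hepatocyte markers, 1 averaged 1 CPM or more in control, APOB had no count in any library, and the summed markers were 5.28 to 10.1 CPM in N_30, 1.49 to 2.01 CPM in N_28 and 4.70 to 7.67 CPM in control libraries. The hepatocyte markers thus go against the label of a liver cancer line, and the identity of the cells was not tested. All 4 mesenchymal markers were above 1 CPM in control libraries, with sums of 1727 to 1747 CPM in N_30, 1554 to 1664 CPM in N_28 and 1728 to 1805 CPM in control libraries, and CDH2 among them fell in N_28 (log2 fold change -1.15, adjusted p = 7.717e-07, edgeR). Of 4 epithelial markers 3 were above 1 CPM in control libraries, and the sum of all 4 was 569 to 601 CPM in N_30, 386 to 430 CPM in N_28 and 469 to 542 CPM in control libraries. None of 3 blood markers and 1 of 3 endothelial markers reached 1 CPM in control libraries, and the endothelial sum was 1.38 to 1.98 CPM in N_30, 2.14 to 2.69 CPM in N_28 and 1.22 to 1.57 CPM in control libraries. Against control, the hepatocyte, mesenchymal and epithelial sums were lower in N_28 and the endothelial sum was higher. None of these lists moved as a whole. Beside CDH2, VIM (log2 fold change -0.0725), ZEB1 (0.13) and FN1 (-0.25) were not called in N_28 against control. Of the epithelial markers KRT8 fell (-0.37, adjusted p = 0.003453, edgeR), while KRT18 (-0.037) and CDH1 (0.18) were not called. Of the hepatocyte markers TF (-3.09, adjusted p = 0.0006086, edgeR) and SERPINA1 (-2.84, adjusted p = 0.02237, edgeR) fell. AFP (0.30) was not called, and the other hepatocyte markers had too few counts to be tested. Of the endothelial markers PECAM1 rose (0.81, adjusted p = 0.03457, edgeR), while CDH5 and VWF had too few counts to be tested. The part of these markers in the members' values was not tested. In bulk RNA, fewer cells of a type and less RNA per cell cannot be told apart.

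The members took a larger share of the reads in N_28 than in any other library. They held 0.645%, 0.635% and 0.636% of all counts in the N_30 libraries, 0.734%, 0.751% and 0.749% in the N_28 libraries, and 0.646%, 0.678% and 0.680% in the control libraries. Each library's median log2 difference from the control mean was -0.057, -0.075 and -0.10 in N_30, 0.18, 0.19 and 0.16 in N_28, and -0.038, 0.025 and 0.021 in control. The N_28 libraries were the 3 highest and the N_30 libraries the 3 lowest, and control replicate 1 lay nearer to N_30 than its 2 fellow controls did. Counted by genes, 45, 49 and 41 members were above the control mean in the N_30 libraries, 124, 130 and 127 in the N_28 libraries, and 49, 95 and 92 in the control libraries.

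**Figure D1:**
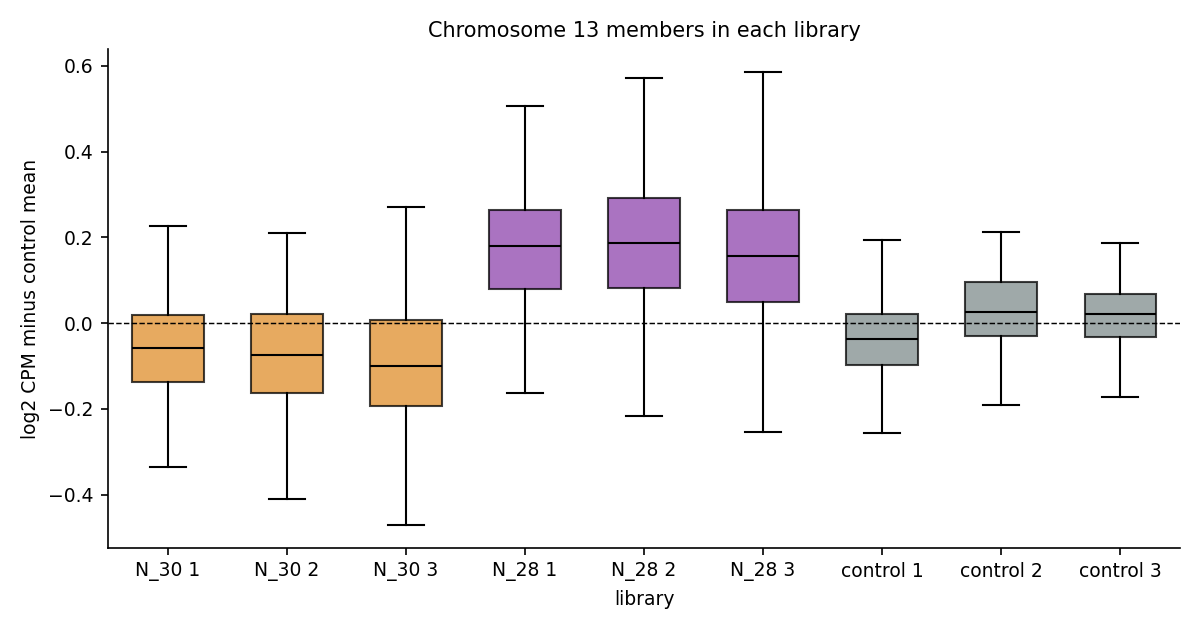
Log2 CPM of the 154 members minus the control mean of each gene, in each of the 9 libraries; boxes span the middle 50% of members, lines in them are medians and whiskers follow the usual Tukey rule, with members beyond them not drawn. The N_28 boxes lie almost wholly above 0, with medians of 0.16 to 0.19, and the N_30 medians lie below it, at -0.057 to -0.10.

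In N_28 against control, the members stood 1.13-fold higher at the median (median log2 fold change 0.17, against -0.0015 over all 15019 tested genes). The middle 50% of members lay between 0.081 and 0.26, the whole range was -0.82 to 0.90, and 135 members were above 0 while 19 were below. Calls were made with edgeR's quasi-likelihood test where p, after Benjamini-Hochberg adjustment over all tested genes, was under 0.05. By that rule 30 of 154 members rose, which is 19.5%, where 4.49% of all tested genes were called higher. 4 members fell, or 2.60%, where 5.75% of all tested genes were called lower. In 79 members every N_28 library was above every control library, against 14.2% of all tested genes, and in 8 every N_28 library was below, against 14.6%. The 120 members that did not pass were mostly displaced to the same side, 105 above 0 and 15 below, with a median of 0.14. The count of 30 rests on few libraries: it was 16 without control replicate 1, and 15, 16 and 18 without N_28 replicate 1, 2 and 3.

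Among the risers, ZIC2 moved most. ZIC2 (ENSG00000043355, chr13:99981772-99986773, plus strand) encodes a zinc finger transcription factor of the developing nervous system. It had 52.3, 60.6 and 73.7 CPM in N_30 libraries, 103, 102 and 118 CPM in N_28 libraries and 57.9, 50.4 and 65.3 CPM in control libraries. The N_28 libraries all lay above the other 6, and N_28 against control gave a log2 fold change of 0.90 (SE 0.12, adjusted p = 2.00e-04, edgeR). VPS36, a subunit of the ESCRT-II complex that sorts membrane proteins into endosomal vesicles, had 29.2, 28.4 and 30.9 CPM in N_28 libraries and 19.4, 21.2 and 21.1 CPM in control libraries (log2 fold change 0.52). MZT1, a small partner of the γ-tubulin complexes that seed microtubules, had 41.8, 42.8 and 42.7 CPM in N_28 libraries and 26.1, 30.5 and 34.3 CPM in control libraries (0.48). NDFIP2, an adaptor that recruits NEDD4 family ubiquitin ligases, had 82.4, 94.2 and 77.8 CPM in N_28 libraries and 62.2, 68.2 and 59.8 CPM in control libraries (0.42). In each of these genes the N_28 and control libraries did not overlap. The other 4 of the 8 largest rises were NEK3, a kinase of the NIMA family, at 0.51, PAN3, the partner of the PAN2 deadenylase that shortens poly(A) tails, at 0.43, DGKH, a diacylglycerol kinase, at 0.35, and DZIP1, a zinc finger protein of the primary cilium, at 0.35. These 4 calls did not hold in every alternative. Of the 16 alternatives run, the call was lost in 5 for NEK3, in 4 each for PAN3 and DGKH and in 2 for DZIP1. VPS36 overlaps THSD1 on the same strand, and reads shared by the pair are uncertain in their assignment.

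The 4 members that fell against the shift were SHISA2, GJA3, KATNAL1 and ABCC4. SHISA2 (ENSG00000180730, chr13:26044597-26051031, minus strand) belongs to a family known from vertebrate embryos to hold FGF and Wnt receptors in the endoplasmic reticulum. It had 48.3, 55.6 and 47.2 CPM in N_30 libraries, 27.9, 25.8 and 28.2 CPM in N_28 libraries and 45.3, 52.8 and 46.5 CPM in control libraries. The N_28 libraries were the lowest 3 of the 9, and the N_30 libraries overlapped control (log2 fold change -0.82, SE 0.08, adjusted p = 2.997e-05, edgeR, in N_28 against control). GJA3 (ENSG00000121743, chr13:20138255-20161049, minus strand) encodes a gap junction connexin best known from the eye lens. It had 8.72, 9.05 and 7.70 CPM in N_30 libraries, 4.33, 3.62 and 3.58 CPM in N_28 libraries and 7.28, 5.67 and 6.23 CPM in control libraries. Its 3 sets did not overlap, and the N_28 fold change was -0.73 (SE 0.14, adjusted p = 0.004364, edgeR). KATNAL1 (ENSG00000102781, chr13:30202630-30307484, minus strand), a katanin-like ATPase that severs microtubules, had 18.0, 17.2 and 17.4 CPM in N_30 libraries, 14.1, 14.4 and 13.9 CPM in N_28 libraries and 20.5, 20.1 and 20.1 CPM in control libraries. All 3 sets were apart from each other, with control highest and N_28 lowest (-0.52 in N_28, SE 0.08, adjusted p = 0.0006372, edgeR). ABCC4, an ATP-driven pump that exports cyclic nucleotides and drugs, had 115, 129 and 125 CPM in N_28 libraries and 150, 137 and 141 CPM in control libraries, a fall of 0.21 on the log2 scale that passed narrowly (log2 fold change -0.21, adjusted p = 0.04601, edgeR) and was lost in 9 of 16 alternatives.

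**Figure D2:**
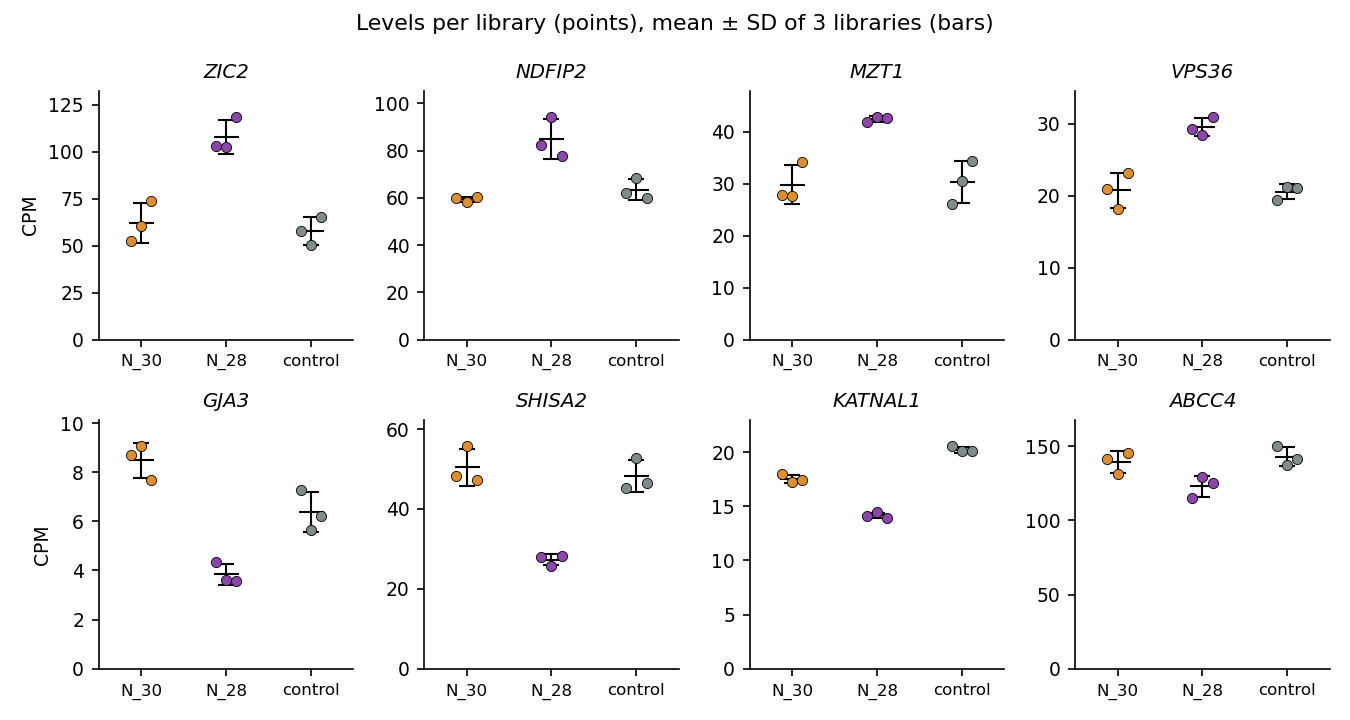
CPM of 8 members in each library (points), with the mean and SD of 3 libraries per set (bars); the upper row shows members that rose in N_28 and the lower row those that fell. In ZIC2, NDFIP2, MZT1 and VPS36 the N_28 points lie above all others, and in GJA3, SHISA2, KATNAL1 and ABCC4 they lie below all others.

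Sequences before the start sites are shown for the largest movers, a pair that moved with the joint shift in N_30 against N_28 (ZIC2 and NALCN) and a pair that moved against it (GJA3 and SHISA2), so that genes on both sides can be compared in base composition. Each is the 250 bases before the RefSeq start on GRCh38.p14, read 5′ to 3′ on the gene's strand, with GGGCGG, the core of the GC box, or its reverse complement CCGCCC in capitals. ZIC2 covers chr13:99981534-99981783, plus strand, and NALCN covers chr13:101416509-101416758, minus strand. GJA3 covers chr13:20161053-20161302, minus strand, and SHISA2 covers chr13:26052017-26052266, minus strand. The SHISA2 window lies before a RefSeq start that is upstream of the 5′ end of the gene in GENCODE, at chr13:26051031.
ZIC2: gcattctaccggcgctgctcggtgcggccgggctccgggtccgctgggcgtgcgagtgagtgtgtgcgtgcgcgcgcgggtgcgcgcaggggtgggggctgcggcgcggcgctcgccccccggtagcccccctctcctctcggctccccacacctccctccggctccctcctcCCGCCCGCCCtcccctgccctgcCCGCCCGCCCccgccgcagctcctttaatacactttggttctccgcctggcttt
NALCN: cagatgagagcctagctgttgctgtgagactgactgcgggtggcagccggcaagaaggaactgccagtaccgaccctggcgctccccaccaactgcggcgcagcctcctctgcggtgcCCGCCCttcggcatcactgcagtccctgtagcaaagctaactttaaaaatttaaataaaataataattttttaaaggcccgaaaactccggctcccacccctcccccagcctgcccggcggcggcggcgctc
GJA3: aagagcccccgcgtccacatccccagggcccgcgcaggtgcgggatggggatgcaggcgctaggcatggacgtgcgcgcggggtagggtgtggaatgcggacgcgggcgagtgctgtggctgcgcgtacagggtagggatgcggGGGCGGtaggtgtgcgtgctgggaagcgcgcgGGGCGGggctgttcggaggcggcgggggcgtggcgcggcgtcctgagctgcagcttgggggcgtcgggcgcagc
SHISA2: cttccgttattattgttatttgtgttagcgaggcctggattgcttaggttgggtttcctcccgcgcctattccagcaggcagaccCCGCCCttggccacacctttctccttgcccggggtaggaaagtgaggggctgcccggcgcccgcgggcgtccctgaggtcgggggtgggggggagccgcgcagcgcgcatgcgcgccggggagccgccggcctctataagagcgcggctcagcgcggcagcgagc
Matches to the motif on either strand, overlapping ones included, numbered 4 in ZIC2, 1 in NALCN, 2 in GJA3 and 1 in SHISA2. The GC content was 75.6% for ZIC2, 58.8% for NALCN, 74.8% for GJA3 and 67.6% for SHISA2, with 31, 16, 33 and 26 CpG pairs in that order. The pairs were thus not set apart by either count, since ZIC2 and GJA3 were alike and moved in opposite directions. Of the 154 members, 136 had a RefSeq promoter entry, and 64.0% of those held GGGCGG on either strand, against 42.6% of all 35116 promoters of the same length. The median member window held 22 CpG pairs, against 11 over all promoters. By status in N_28 against control, the medians were 27 in 27 members called with the shift, 29.5 in 4 called against it and 22 in 105 not called. In N_30 against N_28 these medians were 23 in 64 members, 26 in 3 and 22 in 69. These differences were not tested. TATAAA was in 8.09% of member windows, against 10.7% of all windows, CCAAT in 33.1%, against 32%, and CACGTG in 7.35%, against 6.34%. The windows of all promoters were not limited to protein-coding genes, to genes of at least 5 CPM or to 1 window per gene. Those of the members were, so the 2 sets are unlike and the gaps between them cannot be ascribed to the chromosome. These are matches of letters and not sites of binding.

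In N_30 against control the joint displacement was small and on the other side. The median log2 fold change of the members was -0.079 (a fold of 0.947), against -0.0007 over all tested genes, with 35 members above 0 and 119 below. No member was called by edgeR in either direction, where 0.459% of all tested genes were called higher and 0.406% lower; the lowest adjusted p was 0.0703, for DIAPH3. DESeq2 called 1 member lower, DIAPH3, and none higher, where 0.879% and 0.899% of all tested genes were. At an unadjusted p under 0.05, 3 members were higher and 20 lower, where 5.67% and 5.76% of all tested genes were. In 28 members every N_30 library was below every control library, against 7.64% of all tested genes, and in 4 every N_30 library was above, against 7.53%. DIAPH3, a formin that builds actin filaments, had 31.9, 31.7 and 36.7 CPM in N_30 libraries and 41.0, 39.8 and 43.5 CPM in control libraries (log2 fold change -0.31, SE 0.07). With the replicate number as a block, 3 members passed, all lower, where 1.27% of all tested genes were called lower and 1.55% higher with the block. They were DIAPH3 (-0.31, adjusted p = 0.0203), SPRY2, an inhibitor of receptor tyrosine kinase signalling (-0.28, adjusted p = 0.0229), and ZDHHC20, a palmitoyltransferase (-0.25, adjusted p = 0.0358, edgeR). DIAPH3 and SPRY2 were each also called in other alternatives, and ZDHHC20 with the block only among those run. GJA3 had the highest value in N_30 (0.41, adjusted p = 0.2126, edgeR) and NALCN the lowest (-0.39, adjusted p = 0.1862, edgeR).

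N_30 against N_28 gave the widest contrast. It shares its N_28 libraries with the first comparison, so its values follow from the same libraries and are not separate evidence. The members stood 0.833-fold at the median (log2 fold change -0.26, against 0.0020 over all tested genes), with the middle 50% between -0.36 and -0.12, 17 members above 0 and 137 below. By edgeR, 73 of 154 members fell in N_30 against N_28, which is 47.4%, where 8.96% of all tested genes were called lower. The 3 that rose were GJA3, SHISA2 and KATNAL1, or 1.95% of the members, where 9.38% of all tested genes were called higher. In 94 members every N_30 library was below every N_28 library, against 18.1% of all tested genes, and in 5 every N_30 library was above, against 18.4%. Of the 30 members that rose in N_28 against control, UBAC2 and TEX30 were the ones not called here.

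ZIC2 fell by 0.79 on the log2 scale in N_30 against N_28 (SE 0.11, adjusted p = 0.0003023, edgeR). NALCN (ENSG00000102452, chr13:101053776-101416492, minus strand), a sodium leak channel that sets the resting potential of neurons, had 4.21, 4.32 and 4.63 CPM in N_30 libraries, 7.41, 7.14 and 7.24 CPM in N_28 libraries and 6.21, 5.87 and 5.29 CPM in control libraries. Its 3 sets did not overlap, with control between the knock-down sets, and the fold change was -0.72 (SE 0.12, adjusted p = 0.0008897, edgeR) in N_30 against N_28, while neither set passed against control. NEK3 (-0.58), WBP4 (-0.58), CRYL1 (-0.58), DGKH (-0.56), LRCH1 (-0.53) and NDFIP2 (-0.51) came next among called members. WBP4 is a protein of the spliceosome, CRYL1 a dehydrogenase of sugar acids related to a lens crystallin, and LRCH1 a protein of leucine-rich repeats. WBP4 overlaps ELF1 on the opposite strand, and whether the counting used strand is not given. Of the members going the other way, GJA3 was higher in N_30 by 1.14 (SE 0.14, adjusted p = 7.89e-05, edgeR), SHISA2 by 0.88 (SE 0.08, adjusted p = 8.055e-06, edgeR) and KATNAL1 by 0.31 (SE 0.08, adjusted p = 0.01295, edgeR), a call lost in 2 of 16 alternatives. KATNAL1 was below control in both sets, at -0.52 in N_28 and -0.21 in N_30, and only the N_28 value passed.

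**Figure D3:**
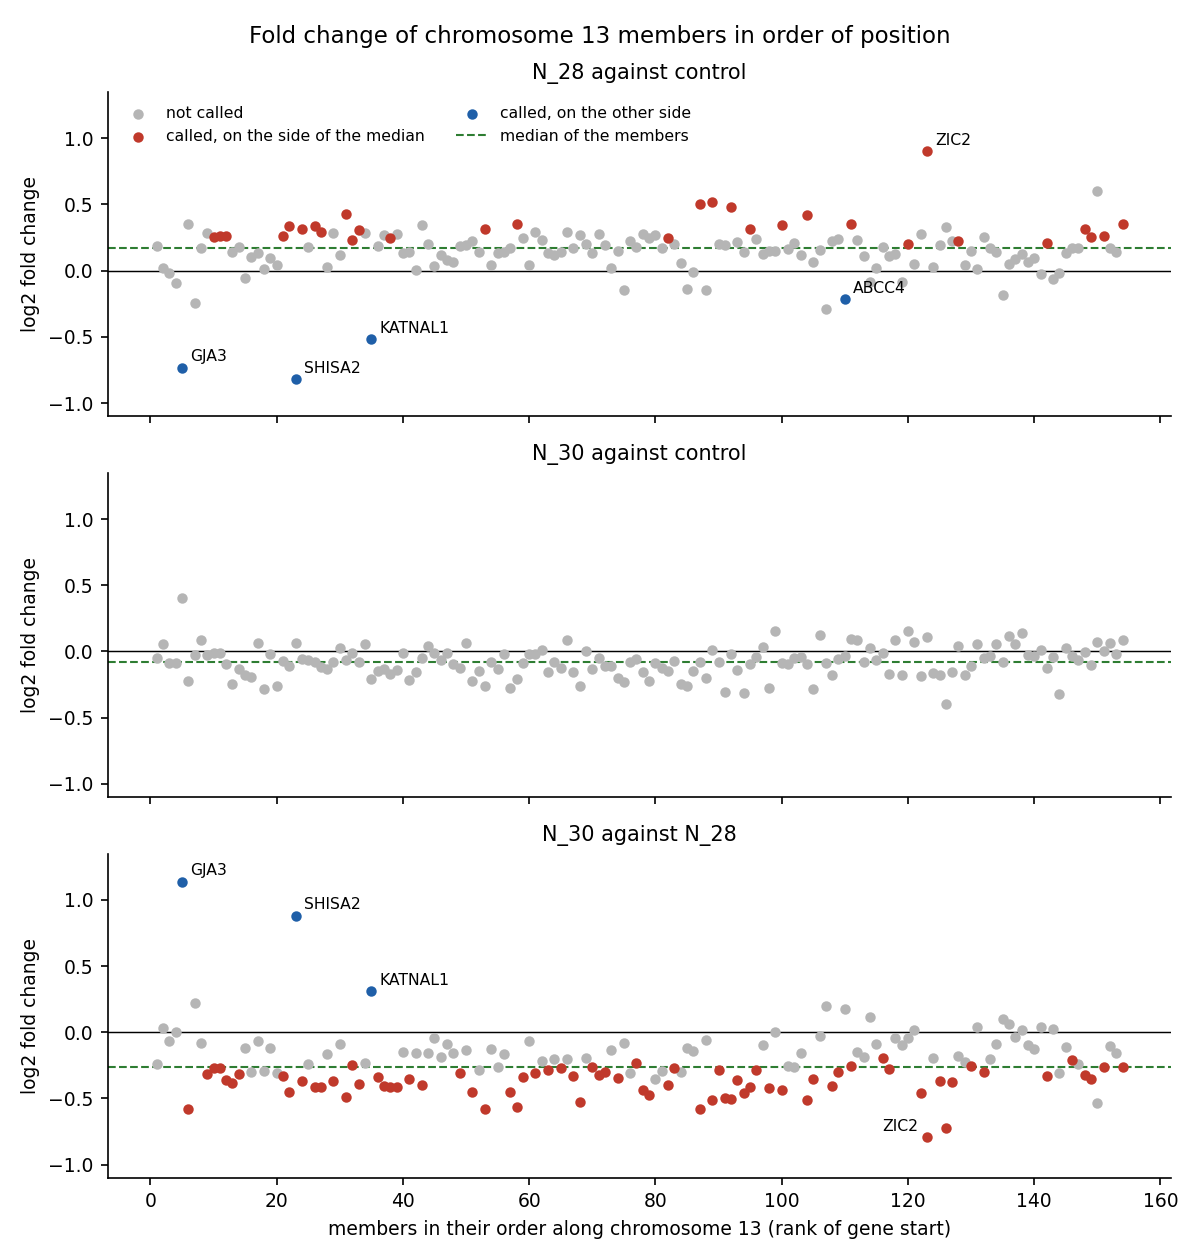
Log2 fold change of the 154 members in their order along chromosome 13, in the 3 comparisons; red points were called on the side of the members' median, blue points on the other side, grey points were not called, and the dashed line is the median. The called points of N_28 against control (0.17 at the median) and of N_30 against N_28 (-0.26) are spread along most of the chromosome. Blue points number 4 and 3, and none of the 4 members from 10 to 20 Mb was called.

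The displacement ran along nearly the whole measured length. Cut into stretches of 10 Mb, the 10 stretches with members had a median above 0 in N_28 against control, at 0.0019 to 0.21, and a median below 0 in both other comparisons. The lowest N_28 value belongs to the first stretch, from 10 to 20 Mb, which holds 4 members. Between 40 and 60 Mb all 40 members were below 0 in N_30 against N_28, and 22 of them were called. The longest unbroken run of members below 0 in that comparison held 63 genes, starting with HMGB1 and ending with LMO7 (chr13:30456704-75859870), with 36 of them called. Over the whole chromosome 137 of 154 members were below 0 there. Of all members 47.4% were called lower, and of all tested genes 8.96%. Whether calls were denser in these stretches than among the other members was not tested. The members called against the shift in N_28 were not neighbours: GJA3, SHISA2, KATNAL1 and ABCC4 were the 5th, 23rd, 35th and 110th member. Counting members that were not called, GJA3 closed a run of 3 below 0 in N_28 against control that began with ZMYM5. In the last stretch, from 110 to 120 Mb, 18 members were split in N_30 against control, 8 above 0 and 10 below, while 15 of the 18 were above 0 in N_28. Genes on the plus strand (71) and the minus strand (83) had N_28 medians of 0.15 and 0.18.

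The number of calls went with the level of the genes. Members of 5 to 10 CPM had a median of 0.14 in N_28 against control, those of 10 to 20 CPM 0.17, those of 20 to 50 CPM 0.19 and those of 50 CPM or more 0.17. Calls above 0 in these bands numbered 1 of 22, 2 of 37, 16 of 56 and 11 of 39, while the median SE went down through the bands, at 0.14, 0.097, 0.076 and 0.068. In N_30 against control, where no member was called, the medians of these bands were -0.11, -0.080, -0.069 and -0.036, smaller in size from band to band. In N_30 against N_28 they were -0.28, -0.24, -0.27 and -0.25. There 5, 14, 32 and 22 members of these bands were called lower, and 1, 1, 1 and 0 higher. Over all levels, 4.49% of all tested genes were called higher in N_28 against control, and 8.96% lower in N_30 against N_28. Calls over all tested genes were not split by band, so whether this pattern is particular to the members was not tested.

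The members were put into 8 lists by the role of their proteins, which took in 124 of the 154. Their counts stand beside shares of 19.5% of all members and 4.49% of all tested genes called higher in N_28 against control, and of 47.4% of all members and 8.96% of all tested genes called lower in N_30 against N_28; no list was tested against the other members. Genome maintenance and cell division held 20, with 5 up and none down in N_28 against control and 10 down and none up in N_30 against N_28. TFDP1, which pairs with E2F factors to drive genes of DNA replication, had 217, 221 and 215 CPM in N_30 libraries, 278, 284 and 274 CPM in N_28 libraries and 226, 238 and 238 CPM in control libraries. The N_28 libraries were highest and the N_30 libraries lowest, and TFDP1 rose in N_28 (0.25, SE 0.05, adjusted p = 0.005263, edgeR). TUBGCP3, a core subunit of the γ-tubulin ring, rose by 0.21 in N_28, a call lost in 7 of 16 alternatives, and was 0.33 lower in N_30 than in N_28 (log2 fold change -0.33). DIAPH3, which fell in N_30 against N_28 (-0.50), had 48.9, 47.5 and 45.7 CPM in N_28 libraries, above each control library, yet did not pass there (0.19, adjusted p = 0.1108, edgeR). CDC16, a subunit of the anaphase-promoting complex, and PARP4, a poly-ADP-ribose polymerase of the vault particle, passed in no comparison and had values of -0.11 and -0.12 in N_30 against N_28.

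Of 14 members for transcription and chromatin, 4 rose in N_28 and 7 fell in N_30 against N_28. Besides ZIC2 these included KLF5, a zinc finger factor of epithelial growth, with 49.99, 48.2 and 48.8 CPM in N_28 libraries and 40.0, 39.3 and 38.9 CPM in control libraries (0.31), and GTF3A, a factor for RNA polymerase III at ribosomal RNA genes (0.30), which overlaps MTIF3 on the opposite strand and whose call was lost in 3 of 16 alternatives. POLR1D, a subunit shared by RNA polymerases I and III, stood at 0.12 in N_28 without passing, and SUPT20H, of the SAGA coactivator, at 0.079. Of 16 members for RNA processing and translation, 3 rose in N_28 (PAN3, WBP4 and INTS6, a subunit of the Integrator complex) and 6 fell in N_30 against N_28, among them ZC3H13, of the RNA methylation writer complex (-0.33). The N_28 calls of WBP4 and INTS6 were lost in 12 of 16 alternatives each. RBM26 (-0.16) and ARGLU1 (-0.20), the most abundant members of that list that did not pass, were on the same side in N_30 against N_28.

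Nuclear transport was the smallest list, with 5 members; 1 rose in N_28 and 4 fell in N_30 against N_28. NUP58, of the central channel of the nuclear pore, had 55.4, 56.5 and 47.7 CPM in N_30 libraries, 74.1, 74.8 and 68.8 CPM in N_28 libraries and 51.4, 60.9 and 59.8 CPM in control libraries. Its N_28 libraries lay above all others (0.34 in N_28, a call lost in 3 of 16 alternatives, and -0.45 in N_30 against N_28). KPNA3, an importin α, and XPO4, an exportin, fell in N_30 against N_28 (-0.44 and -0.31) and just missed the call in N_28 (adjusted p = 0.05704 and 0.05002, edgeR). The XPO4 call was lost in 4 of 16 alternatives. PCID2, a protein of messenger RNA export, passed in no comparison and was at -0.11 in N_30 against N_28.

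The ubiquitin system and protein turnover held 18 members, of which 6 rose in N_28 and 8 fell in N_30 against N_28. All 18 were below 0 in N_30 against N_28, as were 137 of all 154 members. USP12, a deubiquitinase, had 37.5, 37.1 and 37.3 CPM in N_30 libraries, 49.7, 50.9 and 48.9 CPM in N_28 libraries and 36.1, 41.1 and 40.8 CPM in control libraries (0.34 in N_28). HSPH1, a chaperone that recharges HSP70, rose by 0.25, a call lost in 5 of 16 alternatives. UBAC2, of protein degradation at the endoplasmic reticulum, rose by 0.20 in N_28, a call lost in 12 of 16 alternatives, and stood at 0.15 in N_30 (adjusted p = 0.308, edgeR), so that the sets differed by -0.044 with no call.

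Of 9 members with mitochondrial proteins, none was called in either set against control. All 9 were above 0 in N_28 (0.029 to 0.18), as were 135 of all 154 members. Against N_28, 3 fell in N_30: VWA8, a mitochondrial ATPase (-0.45), MICU2, a gatekeeper of the calcium uniporter (-0.32), and SUCLA2, a subunit of succinyl-CoA synthetase (-0.26), whose call was lost in 7 of 16 alternatives. CARS2, the cysteine tRNA synthetase of mitochondria, was nearly level between the sets (0.014), and NAXD, which repairs hydrated NADPH, was at -0.034.

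Membrane traffic, glycosylation and transport held 22 members, with 4 up and 1 down in N_28 and 9 down in N_30 against N_28. SLC7A1, a transporter of cationic amino acids, had 156, 158 and 136 CPM in N_30 libraries, 206, 201 and 184 CPM in N_28 libraries and 159, 171 and 146 CPM in control libraries (0.31 in N_28, a call lost in 4 of 16 alternatives). TM9SF2, an abundant protein of endosomes and the Golgi, was near 0 throughout, at 0.054 in N_28, 0.071 in N_30 and 0.017 between them. Signalling, adhesion and cytoskeleton held 20 members, with 3 up and 1 down in N_28, and 9 down and 1 up in N_30 against N_28. RASA3, which switches off RAS and RAP proteins, rose by 0.26 in N_28 and was level with control in N_30 (0.0020). LMO7, an actin-associated junction protein, fell in N_30 against N_28 (-0.42), while IRS2, an adaptor of the insulin receptor, and STK24, a kinase of the STE20 family, stood at 0.060 and -0.041. The 30 members in no list counted 4 up and 2 down in N_28, and 17 down and 2 up in N_30 against N_28. SUPT20H, RBM26, PCID2, SUCLA2, CARS2, NAXD, TM9SF2, STK24 and GAS6 also overlap genes on the opposite strand, so their counts are uncertain in the same way.

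**Figure D4:**
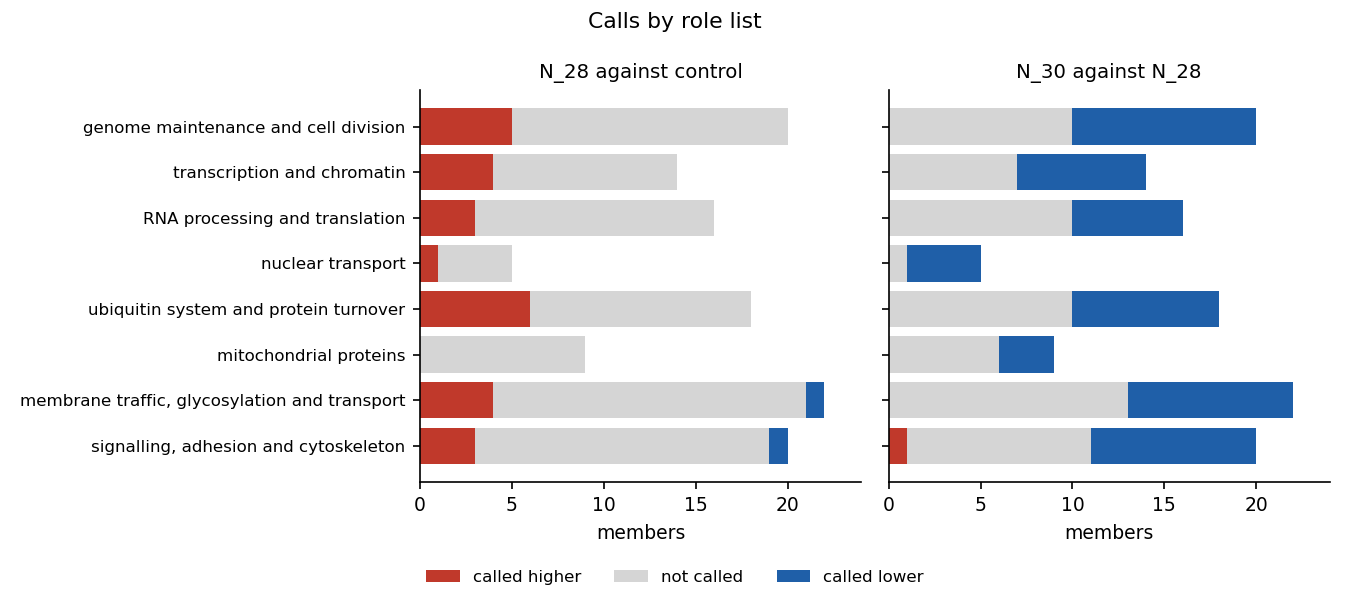
Number of members called higher, not called and called lower in each of the 8 role lists, in N_28 against control (left) and N_30 against N_28 (right). Each list had calls on the side of the joint shift in at least 1 of the comparisons, and the mitochondrial list had 0 of 9 in N_28 against control and 3 of 9 in N_30 against N_28.

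Set beside the other autosomes, with protein-coding genes of at least 5 CPM counted alike, chromosome 13 (164 genes, those left out by name included) had the highest median of 22 in N_28 against control and the lowest in both other comparisons. In N_28 against control its median was 0.17, followed by chromosome 14 at 0.076, with chromosome 22 lowest at -0.11. In N_30 against control it was -0.079, next to chromosome 8 at -0.046. In N_30 against N_28 it was -0.26, with chromosome 14 next at -0.097 and chromosome 22 at the other end at 0.17. The spread within the members was no wider than elsewhere: the middle 50% of members spanned 0.18 in N_28 against control, against 0.21 for all 9927 autosomal genes counted.

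**Figure D5:**
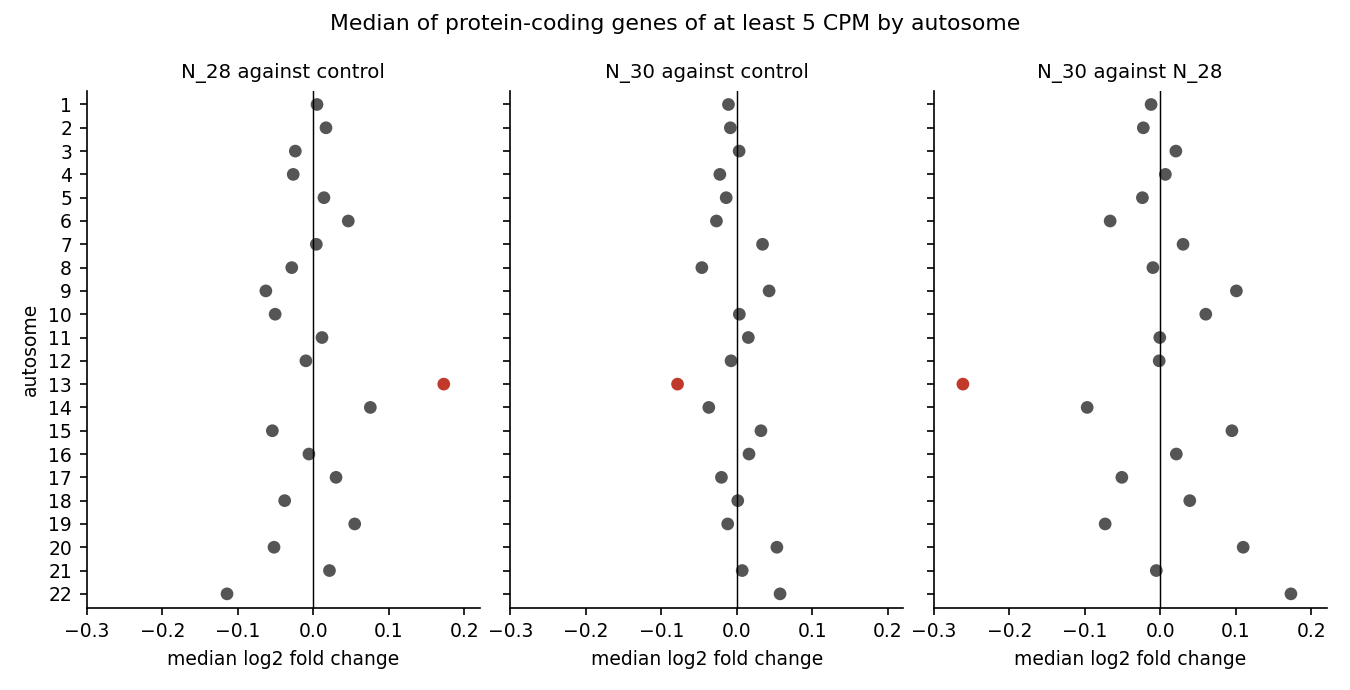
Median log2 fold change of protein-coding genes of at least 5 CPM on each of the 22 autosomes, in the 3 comparisons; chromosome 13 is red. It is at the right end in N_28 against control (0.17) and at the left end in N_30 against control (-0.079) and in N_30 against N_28 (-0.26).

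Just inside the bound of 5 CPM lay EEF1AKMT1 (5.03 CPM), ZMYM5 (5.04 CPM) and GAS6 (5.44 CPM), with N_28 values of 0.17, -0.015 and 0.61, and just outside lay PHF11 (4.94 CPM), TRPC4 (4.84 CPM) and GRTP1 (4.34 CPM), with 0.34, -0.998 and -0.034. The 10 genes left out by name had a median of 0.17 in N_28 against control and -0.22 in N_30 against N_28, near those of the members. In N_30 against N_28, 3 of them were above 0 and 7 below, against 17 and 137 of the members. RFC3 went against the shift, at -0.42 in N_28 against control (adjusted p = 0.0005, edgeR). It was 0.34 higher in N_30 than in N_28 (adjusted p = 0.0016, edgeR). Of the protein-coding genes below 5 CPM, 36 passed the filter on low counts. Their medians were 0.071 in N_28 against control and -0.057 in N_30 against N_28. All 2343 such genes of the genome were at -0.021 and 0.015. In N_30 against control the 36 did not share the members' fall, with a median of 0.019, 19 above 0 and 17 below. All such genes of the genome were at -0.0037 there. The 35 tested genes of the chromosome that are not protein-coding had medians of 0.20 in N_28 and 0.13 in N_30 against control, where all 2295 such genes were at -0.0075 and 0.0084, so in N_30 they lay on the other side of 0 than the members. A gene of low level can pass the filter through the set in which it is high, which limits what these last medians show. Membership near the bound of 5 CPM can depend on N_28 in the same way. GAS6 averaged 6.91 CPM in N_28 but 4.84 CPM in N_30 and 4.56 CPM in control libraries, so it reached the bound through N_28. TRPC4, lower in N_28 than in control, stayed below the bound.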

How the data were processed

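RNA from 9 Huh7 libraries was sequenced after standard Illumina preparation, per the labels' protocols. The authors deposited raw counts, 1 row per gene in 60448 rows, all under human Ensembl identifiers and none of them a total. The aligner, counter, annotation and strand setting are left unstated by every source used here. A mouse build, mm8, is named per the submitters' processing notes. All 9 count columns matched a sample's title. Chromosome, position and gene type came from GENCODE release 29 (GRCh38) by identifier, and symbols from a gene name table for 56434 rows.

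Counts were scaled by TMM and fitted with edgeR 4.0.16 in R 4.3.3 (quasi-likelihood, all 9 libraries, a term per set) on 15019 genes that passed a minimum count of 10. Calls needed p under 0.05 after Benjamini-Hochberg adjustment over all of them. CPM use TMM-scaled library sizes. Depth gives a floor of 3 counts at 0.131 to 0.182 CPM, for counting error only. The chi-square per gene between libraries of a set was 3.65 to 12.8, above sampling noise, so none was taken as a copy of another. The method was tested on simulated data.

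The members and role lists were chosen with earlier results of these data known. Named genes are OPA1, in each comparison the 8 largest changes called on the side of the members' median and the 8 largest called on the other, from each role list up to 3 members with the lowest p in N_30 against N_28 and up to 2 highest-count members that did not pass there, and the 3 genes on each side of the 5 CPM bound. SPRY2, TEX30, RFC3, run ends, overlap partners and chromosome neighbours were named after their values were seen. Some genes that the rule names are not reported here.

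Libraries of the same number in N_30 and control deviated together from their set means (correlations of 0.122, 0.169 and 0.306). For N_28 and N_30 the correlations were 0.0268, -0.0253 and 0.235, and for N_28 and control -0.0588, 0.0358 and 0.142. Number 3 gave the highest value in each pair of sets. Libraries numbered 3 also had the lowest share of mitochondrial counts in their sets (3.34% in control, 3.30% in N_28, 3.33% in N_30). The labels give no pairing, and whether the numbers pair any libraries is not settled. The main fit therefore left the numbers out, and the block was an alternative only. Alternatives were DESeq2 1.42.0, its size factors in edgeR, TMM without chromosome 13, no filter, fits of only the sets compared, the replicate block, each library left out, and member bounds of 10 and 1 CPM; leaving out the 3 libraries numbered 3 and a threshold of 0.01 were added after the data were seen. Motifs were searched on both strands in RefSeq promoter windows of GRCh38.p14.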

Additional observations from a re-analysis of the deposited data

Results flagged for a closer look

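The knock-down sets N_30 and N_28 differed from each other in many members, by edgeR's test of N_30 against N_28 on all 9 libraries. That test called 73 members lower and 3 higher in N_30. The log2 differences of N_30 from N_28 among the named members were -0.79 for ZIC2, -0.72 for NALCN, -0.58 for NEK3, -0.58 for WBP4, -0.58 for CRYL1, -0.56 for DGKH, -0.53 for LRCH1 and -0.51 for NDFIP2. In the other direction they were 1.14 for GJA3, 0.88 for SHISA2 and 0.31 for KATNAL1. OPA1 itself was 0.21 higher in N_30 than in N_28 on the log2 scale (adjusted p = 0.0265, edgeR), and its part in these differences was not tested.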

How the results depend on the processing

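The medians kept their sign in every alternative run, and no named call changed direction. Leaving out single libraries gave medians of 0.15 to 0.18 in N_28 against control, -0.11 to -0.059 in N_30 against control and -0.26 to -0.25 in N_30 against N_28, counts of 15 to 32 members called higher and 3 to 4 lower in N_28, 0 to 1 lower in N_30 against control, and 50 to 75 lower in N_30 against N_28. At an adjusted p under 0.01, 11 members passed above 0 in N_28 (2.15% of all tested genes) and 45 below 0 in N_30 against N_28 (4.34%). Without the 3 libraries numbered 3 the median was -0.052 in N_30 against control, nearer to 0 than with any single library left out, and -0.24 in N_30 against N_28; with a member bound of 1 CPM the N_30 against N_28 median was also -0.24, with 5 members called higher, while 1 member was then called higher in N_30 against control. DESeq2 called 1 member lower in N_30 against control (DIAPH3), and no filter 2 (DIAPH3 and SPRY2). The replicate block gave 49 members higher in N_28 against control (7.11% of all tested genes) and 83 lower in N_30 against N_28 (11.9%). It gave 3 lower in N_30 against control and changed no other call of a member there. Whether the numbers pair the libraries in any of these comparisons is not settled. With 3 libraries a set, an exact permutation test of 1 gene could not go below a two-sided p of 0.10, so the calls rest on the spread shared across genes.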
